A study of Prunus sibirica with 6 samples.

Results

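Flower buds of Siberian apricot (Prunus sibirica) were profiled by RNA-seq, and 3 MYB transcription factor clusters are described here. Their best hits in another Prunus species are named after the stamen maturation factors MYB21, MYB24 and MYB108. A cluster is a group of assembled transcripts that stands in for a gene. The clusters were chosen from a table of 1508 transcription factor and regulator clusters, as those whose best Swiss-Prot hit carried the symbol MYB2, MYB62, MYB21, MYB24, MYB57 or MYB108. This gave 3 clusters of 1508. The samples were 3 bud collections of the male sterile clone No. 1 and 3 of the male fertile clone No. 60, all labelled as being at the microspore developmental stage. No treatment is named, and each group was 1 clone, so male sterility cannot be told apart from any other difference between the clones. Such differences can be genetic or lie in growing site, collection or exact bud stage. The samples of a clone are called biological replicates in the study's design text, where separate trees are not mentioned, and the tests use the spread between them. Each sample was of whole buds, in which fewer cells of a type and less RNA per cell cannot be told apart.

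In Arabidopsis, jasmonate is needed for stamens to finish developing. JAZ (TIFY) proteins hold back MYC-type bHLH activators and the MYB factors MYB21 and MYB24 until jasmonate causes their breakdown. MYB21, MYB24 and MYB57 belong to one R2R3-MYB subgroup and promote filament growth, anther opening and pollen maturation. MYB108 acts with MYB24 in stamen and pollen maturation and belongs, with MYB2, MYB62 and MYB78, to a second subgroup. Gibberellin acts upstream by removing DELLA repressors, and the auxin response factors ARF6 and ARF8 promote jasmonate production and MYB21 and MYB24 expression.

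The names of the clusters depended on the database. No cluster of the table had MYB21, MYB24, MYB57 or MYB108 as its best Swiss-Prot symbol, so the identity with MYB21 and MYB24 rests on names given to predicted genes of Prunus mume (Japanese apricot). Cluster-6671.315 had rice MYB2, a stress-response factor, as its Swiss-Prot hit (alignment score 452). Its best nucleotide hit was a MYB24-like transcript of Prunus mume and its best protein hit an unnamed peach protein (score 1257). Cluster-6671.20006 had Arabidopsis MYB62, a phosphate starvation response factor, as its Swiss-Prot hit (score 615), and MYB21 of Prunus mume as both its protein (score 1368) and its nucleotide hit. Cluster-6671.18185 also had MYB62 as its Swiss-Prot hit, at the lowest score of the 3 (256), and MYB108-like of Prunus mume as its protein (score 1180) and nucleotide hit. The clusters are called MYB24-like, MYB21 and MYB108-like below, after their Prunus mume hits. By symbol their Swiss-Prot hits, MYB2 and MYB62, fall in the second subgroup, that of MYB108. Which subgroup each cluster belongs to was not checked by alignment, so the names are labels only.

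The assembled transcripts differed in quality. The MYB24-like cluster was 1061 bases long with a coding stretch of 810 bases, and the MYB21 cluster was 1467 bases long with a predicted coding stretch of 1080 bases. The MYB108-like cluster was 1628 bases long, and its match to known proteins was split into 3 stretches in 3 reading frames, the longest of 777 bases. The authors filed it under MYB-related factors, in 2 entries of that same family, and the others under MYB. No other cluster of the regulator table shared the best nucleotide hit or the best protein hit of any of the 3. Estimated counts were whole numbers within 0.005 in all 6 libraries for MYB24-like and MYB21 and in 5 of 6 for MYB108-like, and fractional counts arise where reads are divided between clusters. Cluster positions and sequences were not analysed here.

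MYB24-like was higher and MYB108-like lower in the sterile clone, and MYB21, the most abundant of them, was moderately higher. Levels are given as FPKM, a measure of RNA abundance that corrects the fragment number for the length of the cluster and the size of the library. MYB24-like stood at 5.55, 7.36 and 6.67 FPKM in the sterile libraries, against 1.47, 2.34 and 2.12 FPKM in the fertile libraries. Every sterile library was above every fertile one, and fertile replicate 1 was the lowest of the 6. The means were 6.53 ± 0.913 FPKM in sterile and 1.98 ± 0.452 FPKM in fertile buds (SD, n = 3 each).

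MYB21 was at 26.1, 23.6 and 26.0 FPKM in the sterile libraries and at 18.8, 16.9 and 16.6 FPKM in the fertile libraries. The groups did not overlap here either, although the gap between them was small, with 23.6 FPKM in the lowest sterile and 18.8 FPKM in the highest fertile library. The mean level was 25.2 ± 1.43 FPKM in sterile and 17.4 ± 1.20 FPKM in fertile buds (SD, n = 3 each).

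MYB108-like ran the other way, at 2.77, 2.98 and 3.16 FPKM in the sterile libraries and 6.0, 4.62 and 4.88 FPKM in the fertile libraries. All sterile libraries lay below all fertile ones, and fertile replicate 1 was the highest of the 6. The mean was 2.97 ± 0.195 FPKM in sterile and 5.17 ± 0.733 FPKM in fertile buds (SD, n = 3 each).

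**Figure D1:**
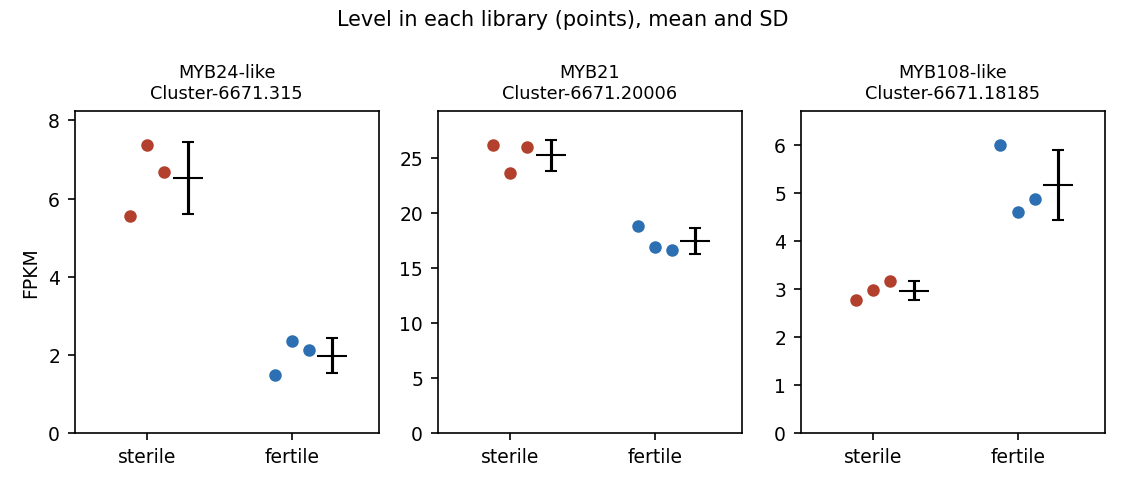
FPKM of the 3 clusters in each library of the sterile (red, left) and fertile (blue, right) clone, with the mean and SD as black bars. MYB24-like and MYB21 were higher in all 3 sterile libraries, and MYB108-like was lower in all 3 (2.77 to 3.16 FPKM in sterile and 4.62 to 6.0 FPKM in fertile buds).

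The test was edgeR's quasi-likelihood test on the estimated counts of all regulator clusters, with p-values adjusted over 1380 clusters. MYB24-like rose by a log2 fold change of 1.56 ± 0.20 (± SE), sterile over fertile, which is 2.95-fold (adjusted p = 3.65e-06). It rested on 69, 102 and 99 counts in the sterile libraries and 28, 47 and 37 counts in the fertile libraries. MYB21 rose by 0.38 ± 0.08, or 1.30-fold (adjusted p = 0.000958), on 438 to 586 counts per library. MYB108-like fell by 0.95 ± 0.15 on the log2 scale to 0.519 of the fertile level (adjusted p = 4.84e-05), on 60, 71 and 81 counts in the sterile libraries and 196, 159 and 146 counts in the fertile libraries.

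All 3 clusters passed the filter on low counts and an adjusted p of 0.05, and so did 57.0% of all clusters tested (28.0% higher and 28.9% lower in sterile buds). The FPKM of the clones did not overlap in 68.6% of the tested clusters. A call or a gap between the clones was therefore common in this table, and the size of the change says more. Among 387 clusters called higher, MYB24-like was the 44th by size of log2 fold change and MYB21 the 260th. Among 399 called lower, MYB108-like was the 116th. A called change of at least 2-fold upward, as in MYB24-like, was seen in 5.72% of tested clusters. Of 124 tested clusters of the MYB and MYB-related families, 59.7% were called, 30 of them higher and 44 lower. Their median log2 fold change was -0.09, beside 0.01 for all tested clusters. Within these families MYB24-like had the fourth largest increase of 30, MYB21 the 24th, and MYB108-like the 18th largest decrease of 44.

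**Figure D2:**
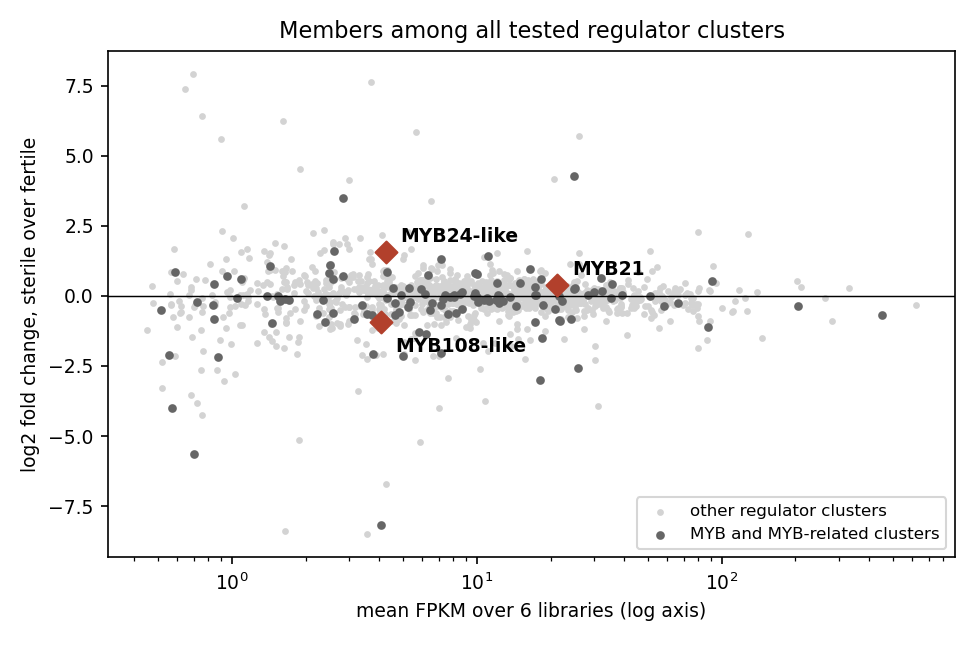
Log2 fold change (sterile over fertile, edgeR) against mean FPKM over the 6 libraries on a log axis, for 1380 tested regulator clusters, with the MYB and MYB-related clusters in dark grey and the 3 described clusters as red diamonds. MYB24-like at 1.56 and MYB108-like at -0.95 stand at similar mean levels, and MYB21 at 0.38 is more abundant. Fitted changes of clusters with almost no counts in a clone depend on the prior count and are not bounds.

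By level, MYB21 ranked 316th of 1508 regulator clusters and 24th of 138 MYB and MYB-related clusters by mean FPKM over the 6 libraries. MYB24-like ranked 1019th and MYB108-like 1038th among the regulators. The summed FPKM of the 3 clusters was 33.9 to 35.8 in the sterile libraries and 23.6 to 26.3 in the fertile libraries. MYB21 made up 69.5% to 75.9% of that sum in sterile and 70.3% to 71.6% in fertile buds. MYB24-like took 16.1% to 21.7% of the sum in sterile and 5.59% to 9.82% in fertile buds. MYB108-like took 8.04% to 8.82% in sterile and 19.4% to 22.8% in fertile buds.

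The order of levels thus differed between the clones. In sterile buds it was MYB21, then MYB24-like, then MYB108-like, and in fertile buds MYB108-like stood above MYB24-like. The ratio of MYB24-like to MYB108-like, which does not depend on how libraries are scaled, was 2.0, 2.47 and 2.11 in the sterile libraries and 0.245, 0.506 and 0.434 in the fertile libraries. The log2 ratio was 1.13 ± 0.16 in sterile and -1.40 ± 0.55 in fertile buds (SD, n = 3 each), a difference of 2.53.

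MYB24-like also differed by more between the clones than MYB21 did. The ratio of MYB24-like to MYB21 was 0.212, 0.312 and 0.257 in the sterile libraries and 0.0781, 0.139 and 0.128 in the fertile libraries, a difference of 1.21 in the mean log2 ratio. MYB21 over MYB108-like was 9.44, 7.92 and 8.22 in the sterile libraries and 3.14, 3.65 and 3.40 in the fertile libraries, a difference of 1.33. In each of the 3 pairs the ratios were higher in all sterile than in all fertile libraries. The two-sided exact permutation p was 0.1 for each pair and 0.1 after adjustment over the 3 pairs, the smallest value that 3 against 3 libraries allow, so this design cannot pass 0.05.

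**Figure D3:**
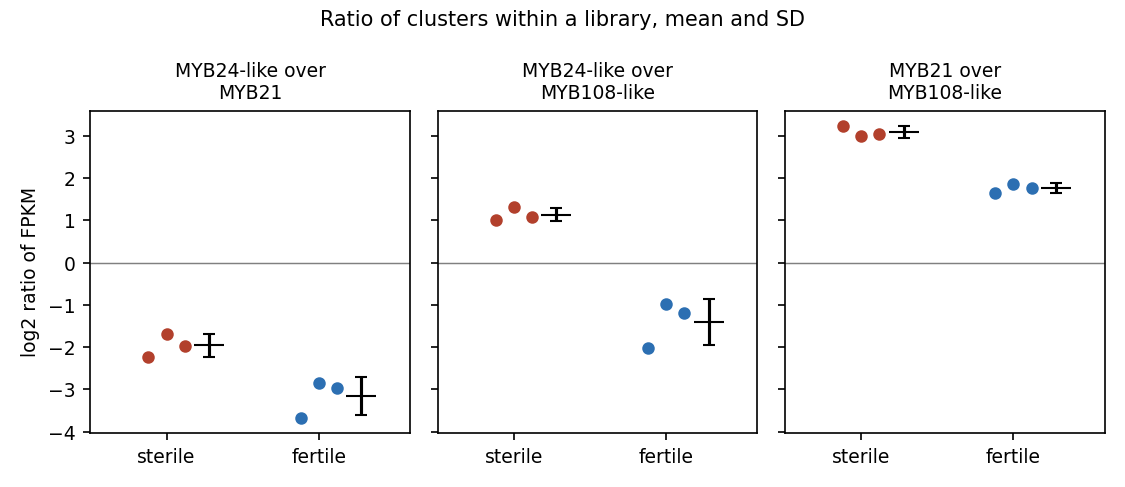
Log2 ratio of FPKM between the clusters of each pair within each library of the sterile (red, left) and fertile (blue, right) clone, with mean and SD as black bars. MYB24-like over MYB108-like was above 0 in the sterile libraries (mean 1.13) and below 0 in the fertile libraries (mean -1.40).

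On a scale set by all clusters the directions were the same. In the second table, with FPKM of 34377 clusters, limma on log2(FPKM + 1) called 49.8% of 21730 tested clusters (29.1% higher and 20.7% lower in sterile buds). There MYB24-like was at 1.34 ± 0.15 (± SE, adjusted p = 0.00038), MYB21 at 0.51 ± 0.07 (adjusted p = 0.00083) and MYB108-like at -0.63 ± 0.11 (adjusted p = 0.00291) by limma. The added 1 understates the change of low clusters such as MYB24-like and MYB108-like. The authors' deposited table gave log2 fold changes of 1.63, 0.45 and -0.88 for MYB24-like, MYB21 and MYB108-like. Its q-values were 1.13e-07, 0.000454 and 0.000342 in the authors' deposited table. Only MYB24-like was marked as up-regulated in the authors' deposited table, in which no marked cluster had a log2 fold change smaller than 1 in size. Of the 1508 regulator clusters, 90 were marked up and 97 down by the authors.

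A further 4 clusters carried names of this group in the protein or nucleotide hits without the Swiss-Prot symbols used for the choice. Cluster-6671.17330 had Antirrhinum MYB305, a flower factor of the same subgroup as MYB21 and MYB24, as its Swiss-Prot hit and Prunus mume MYB305 as its protein hit. It stood at 1.73, 1.67 and 1.88 FPKM in sterile and 3.46, 3.20 and 2.53 FPKM in fertile libraries, with no overlap. It fell by 0.95 ± 0.15 on the log2 scale (edgeR adjusted p = 5.2e-05), the opposite direction to the clusters called MYB24-like and MYB21. Its nucleotide hit was a non-coding RNA of Prunus mume, and only 318 of its 2578 bases matched as coding, so the name covers a short part of the cluster.

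The MYB108-named clusters with Swiss-Prot symbol MYB78 did not pass the test. Cluster-4951.0 was at 1.47, 1.24 and 1.93 FPKM in sterile and 1.61, 1.47 and 1.72 FPKM in fertile libraries, and Cluster-7390.0 at 0.82, 0.92 and 0.63 FPKM in sterile and 0.85, 1.11 and 0.69 FPKM in fertile libraries. The groups overlapped in both. Their log2 fold changes were -0.19 ± 0.23 (edgeR adjusted p = 0.51) and -0.33 ± 0.35 (edgeR adjusted p = 0.446), and at 11 to 48 counts per library a change of the size seen in MYB21 was not detectable. Cluster-6671.8436 matched a MYB108-like transcript by nucleotide only, and MYB101, a pollen tube factor of the GAMYB type, by protein. It was at 36.1 ± 1.35 FPKM in sterile and 34.3 ± 2.65 FPKM in fertile buds (SD, n = 3 each) and was not called (-0.07 ± 0.07, edgeR adjusted p = 0.397), except without fertile replicate 1 (-0.11).

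**Figure D4:**
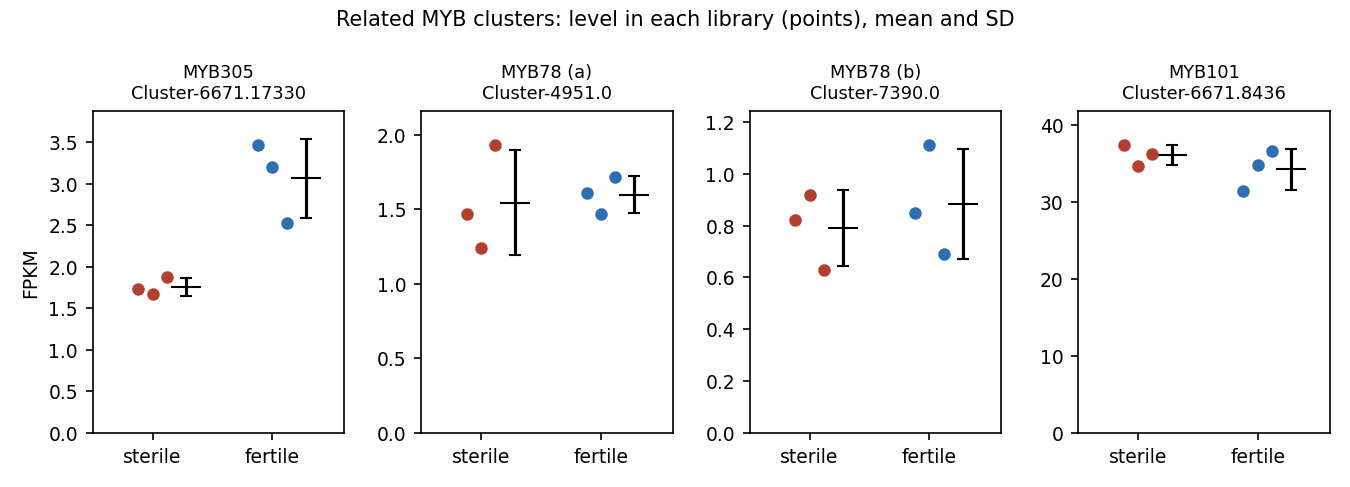
FPKM of the 4 related clusters in each library of the sterile (red, left) and fertile (blue, right) clone, with mean and SD as black bars; MYB78 (a) is Cluster-4951.0 and MYB78 (b) is Cluster-7390.0. MYB305 was lower in all sterile libraries (1.67 to 1.88 FPKM, against 2.53 to 3.46 FPKM in fertile buds), and the clones overlapped in the others.

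Around these MYBs, the jasmonate regulators were lower in sterile buds. All 8 JAZ repressors were lower, with a median log2 fold change of -1.88. The 4 most abundant of them were at -1.51 ± 0.07 and -3.94 ± 0.09 (both TIFY10B), -0.89 ± 0.06 (TIFY6B) and -0.25 ± 0.08 (TIFY3B). TIFY6B (Cluster-6671.8571) was at 60.5 ± 0.724 FPKM in sterile and 102 ± 2.33 FPKM in fertile buds (SD, n = 3 each). TIFY3B, whose libraries overlapped, lost its call with libraries scaled by their implied whole-library totals (-0.11), with limma on FPKM (-0.10) and without sterile replicate 1 (-0.22). A second TIFY6B cluster (-0.24 ± 0.07) lost its call with the implied totals (-0.10) and with limma on FPKM (-0.09).

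All 4 MYC-type activators, which in Arabidopsis form complexes with MYB21 and MYB24 in stamens, were lower, with a median of -1.46. Both clusters with the symbol BHLH28 (MYC5 of Arabidopsis) fell. Cluster-6671.16319 was at 8.85, 7.98 and 7.55 FPKM in sterile and 22.7, 21.3 and 20.0 FPKM in fertile libraries, and Cluster-6671.17577 at 1.28, 1.69 and 1.76 FPKM in sterile and 6.31, 5.81 and 6.52 FPKM in fertile libraries. The groups were far apart in both, and the log2 fold changes were -1.54 ± 0.09 and -2.11 ± 0.15 (edgeR adjusted p = 1.14e-10 and 2.22e-09). MYC2 was at -1.19 ± 0.06 and MYC4 at -1.37 ± 0.08. Of the JAM-type bHLH repressors, which compete with MYC factors, BHLH13 was lower (-0.89 ± 0.07) and BHLH3 was not called (0.00 ± 0.07). In these 3 jasmonate lists 13 of 14 clusters were lower and none higher, where 28.9% of all tested clusters were lower. The lists were chosen with earlier results of these data known, so this is a description and not a test.

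Among the upstream factors both auxin response factors were slightly higher and the DELLA repressors split. ARF8 stood at 89.0 ± 0.908 FPKM in sterile and 71.5 ± 4.18 FPKM in fertile buds, and ARF6 at 75.0 ± 1.07 FPKM in sterile and 59.2 ± 5.05 FPKM in fertile buds (SD, n = 3 each). Both were called higher, at 0.17 ± 0.06 and 0.20 ± 0.06 (edgeR adjusted p = 0.0153 and 0.00934). Both calls were lost without sterile replicate 2 (0.15 for ARF8 and 0.18 for ARF6) and without sterile replicate 3 (0.14 and 0.18), and that of ARF8 also without the low-count filter (0.14). Among 3 tested DELLA repressors, GAI was named by 1 higher cluster (0.46 ± 0.06) and 1 lower cluster (-0.48 ± 0.07), and GAIPB was lower (-0.29 ± 0.06). A DELLA cluster named GAI1 had 4 counts in sterile and 2 counts in fertile libraries and was not tested. In the GAMYB group, regulators of anther development downstream of gibberellin, a second MYB101 cluster rose (3.51 ± 0.18) and MYB33 was at -0.18 ± 0.06. Its call was lost in 8 of 14 alternatives, among them DESeq2 (-0.18), the implied totals (-0.04) and the omission of fertile replicate 2 (-0.14) or of sterile replicate 1 or 3 (both -0.17).

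The direction differed between the remaining lists. MYB111 and MYB12, activators of flavonol synthesis, both rose, by 0.84 ± 0.12 and 0.80 ± 0.23 (edgeR adjusted p = 1e-05 and 0.00686). MYB111 (Cluster-6671.553) stood at 5.70 ± 0.207 FPKM in sterile and 2.88 ± 0.367 FPKM in fertile buds, and MYB12 at 3.30 ± 0.342 FPKM in sterile and 1.69 ± 0.322 FPKM in fertile buds (SD, n = 3 each). Of 5 clusters on a list of wall thickening and anther dehiscence factors 2 were lower, MYB26 (-0.95 ± 0.08) and a NAC043 cluster (-2.07 ± 0.17). The other 3 were not called. They were both MYB83 clusters and the second NAC043 cluster, at -0.77 ± 0.36, whose FPKM did not overlap between the clones, as in 68.6% of tested clusters. Of 5 tested tapetum regulators 3 were higher and 2 lower, with a median of 0.52. bHLH10 (2.30 ± 0.07) and an AMS cluster (0.52 ± 0.08) were higher, and a second AMS cluster (-0.28 ± 0.06) and MYB35 (-0.68 ± 0.13) were lower. The third higher one was MS1, with 170 counts in sterile and 2 counts in fertile libraries. A second MYB35 cluster (32 counts in sterile and 12 counts in fertile libraries) and MYB80 (20 and 13 counts) were below the low-count filter. Their FPKM was higher in every sterile than in every fertile library. This rests on 2 to 13 counts per library for MYB35 and 0 to 7 for MYB80, and the share of 68.6% is of tested clusters only. In all, 20 of 36 tested clusters of these pathway lists were lower, 9 higher and 7 not called, with a median of -0.28. Of all tested clusters 28.9% were lower and 28.0% higher, so the higher count is near that share, and 13 of the 20 lower clusters belong to the jasmonate lists.

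**Figure D5:**
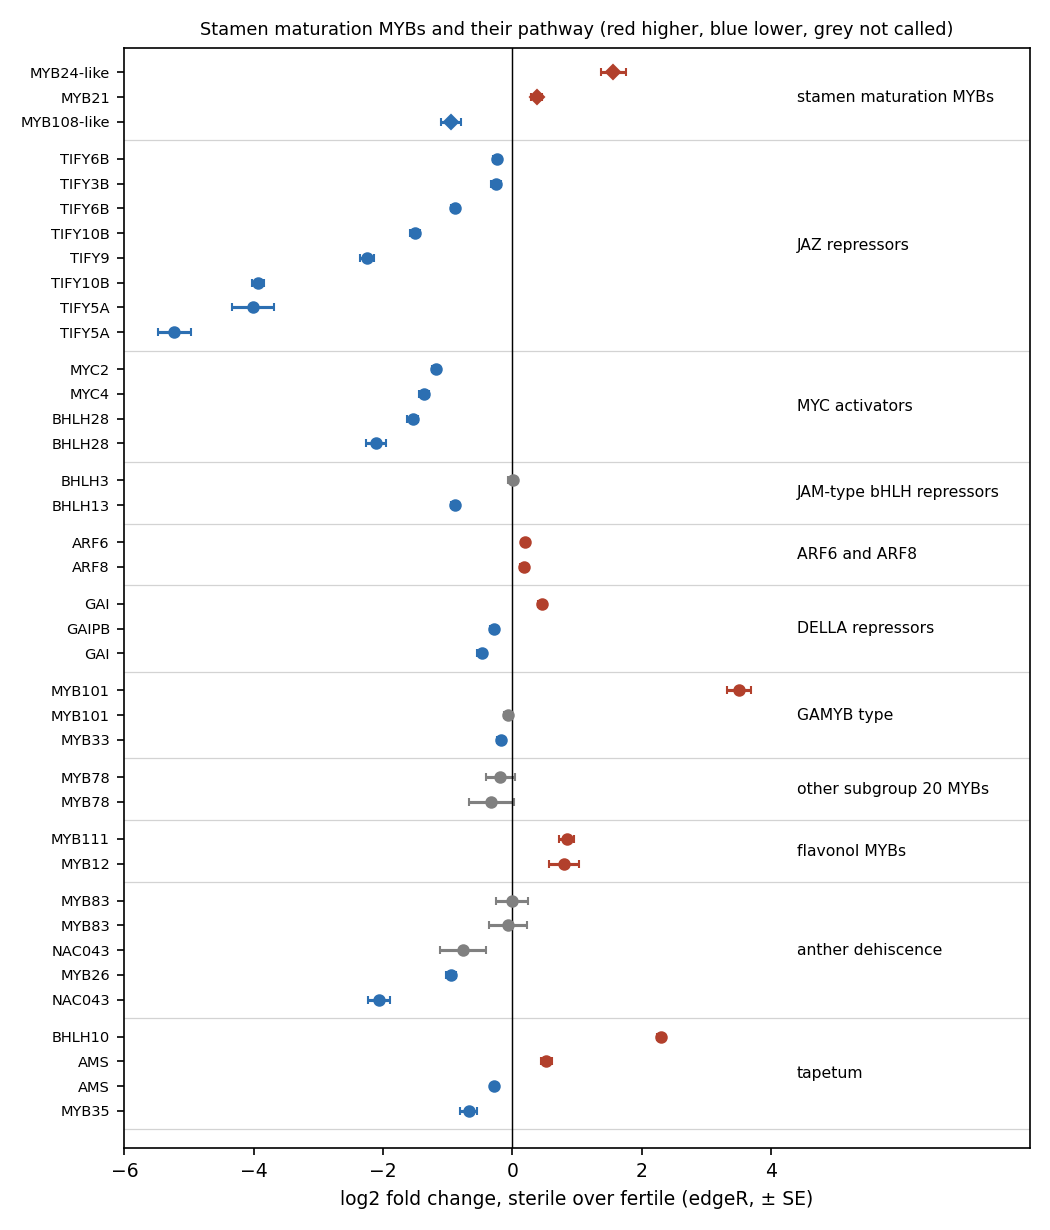
Log2 fold change, sterile over fertile, with its SE from edgeR, for the 3 described MYBs (diamonds) and the tested clusters of the pathway lists (circles), red where called higher, blue where called lower and grey where not called. MYB24-like (1.56) and MYB21 (0.38) stand right of 0 while all 8 JAZ and all 4 MYC-type clusters stand left of it; MS1, with 2 counts in fertile libraries, is left out.

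Markers of floral organs were called in both directions, where 57.0% of all tested clusters were called. The 8 pistil and ovule markers summed to 109 to 113 FPKM in the sterile libraries and 71.7 to 76.7 FPKM in the fertile libraries. DROOPING LEAF, a carpel factor, carried that difference, and the other 7 summed to 39.1 to 42.9 FPKM in sterile and 39.0 to 40.5 FPKM in fertile libraries. Of 7 tested, 3 were higher (DROOPING LEAF, AGL11 and HEC2), 2 lower (HEC1 and a SPATULA cluster) and 2 not called. The SPATULA call (-0.20 ± 0.07) was lost in 8 of 14 alternatives, among them the omission of fertile replicate 2 (-0.18) or of sterile replicate 1 or 2 (both -0.20). A cluster of 494 bases with the symbol CRABS CLAW was below the low-count filter and was listed at 0 in fertile replicate 1. DROOPING LEAF is itself of CRABS CLAW type, so this short cluster need not stand for a separate gene. A list of 5 floral MADS clusters matched by petal and stamen symbols held 3 of SEPALLATA type (SEP1, FBP2 and CMB1), a type that acts in all floral organs, an AGAMOUS-type cluster and a PISTILLATA-type cluster. CMB1 was higher (0.82 ± 0.12) and FBP2 lower (-0.41 ± 0.08), and none of the 5 was at 0 in any library. Together they summed to 322 to 357 FPKM in sterile and 366 to 386 FPKM in fertile libraries. SEPALLATA 1 (-0.18 ± 0.07) lost its call in 7 of 14 alternatives, among them the omission of sterile replicate 1 (-0.16) or 3 (-0.18). The PISTILLATA-type PMADS2, a petal and stamen identity factor, stood at 96.2 ± 9.63 FPKM in sterile and 127 ± 4.58 FPKM in fertile buds (SD, n = 3 each) and fell by 0.55 ± 0.07 on the log2 scale. The AGAMOUS-type cluster AG1, of a class that acts in stamens and carpels, rose by 0.41 ± 0.07. The green tissue factor GLK2 was not called (0.11 ± 0.09), except on the implied totals (0.25) and by limma on FPKM (0.23). The part of these markers in the MYB differences was not tested.

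As a description of likeness, the annotated regulator clusters whose log2 CPM (TMM-scaled counts relative to library size) followed each MYB most closely over the 6 libraries were listed. The 6 points come from 2 clones, so a difference between the clones raises r. For MYB24-like they were JMJ25, a histone demethylase of the Jumonji group (Pearson r = 0.996), a SWIB-domain cluster matching At5g08430 (0.994) and the NAC factor NTL9 (0.993). For MYB21 they were the CCCH zinc finger ZFN2 (r = 0.993) and the HD-ZIP factors ATHB-13 (0.987) and HAT7 (0.986), of which HAT7 was not itself called (0.10 ± 0.07, edgeR adjusted p = 0.252). For MYB108-like they were the B-box factor BBX32 (r = 0.999), a cluster matching HMGR1 that the authors filed under TCP (0.997), and an mTERF cluster matching rice Os05g0404000 (0.996). BBX32 was at 6.35, 6.77 and 6.92 FPKM in sterile and 13.9, 10.7 and 11.5 FPKM in fertile libraries, with fertile replicate 1 highest, as in MYB108-like. Above r = 0.95 there were 94 clusters for MYB24-like, 61 for MYB21 and 151 for MYB108-like, among the annotated ones of 1380 tested clusters.

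The libraries of a clone resembled each other closely. The regulator table held 957196 to 1122298 estimated counts in the sterile and 1242099 to 1424835 in the fertile libraries, and its counts, lengths and FPKM implied 16.2 to 19.0 M fragments for whole sterile and 22.1 to 25.3 M for whole fertile libraries. Log2(FPKM + 1) correlated across genes at r = 0.978 to 0.987 within a clone and 0.888 to 0.895 between clones. By this measure no library stood apart from its clone. Without fertile replicate 1, however, 906 regulator clusters were called, against 786 with all libraries and 703 to 746 without any other library.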

How the data were processed

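Total RNA of ground flower buds was made into libraries by standard Illumina protocols, per the labels' protocols. Per the submitters' processing notes, CASAVA, RSEM and Bowtie2 were used; no version or role is stated, and neither are the assembler and the authors' test. Estimated counts and FPKM per cluster, cluster length, best hits with an alignment score, and a log2 fold change with a q-value were deposited by the authors for 1508 regulator clusters, per the file headers. FPKM values of 34377 clusters were deposited by the authors in a second table.

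The 114 clusters with several entries, 20 of them in more than 1 family, were used once, with the family of the first entry. Estimated counts were rounded and tested with edgeR 4.0.16 in R 4.3.3 (filterByExpr, which removed 128 clusters, TMM, glmQLFit robust, glmQLFTest, Benjamini-Hochberg at 0.05). In the second table, clusters that reached 1 FPKM in 3 or more libraries entered limma 3.58.1 with the trend and robust options, after log2(FPKM + 1). Both tests were also run on simulated data with independent replicates. That cannot check how the samples were collected or the scaling of libraries that differ in most clusters. DESeq2 1.42.0, other scales and filters, and leaving out each library were alternatives. Implied whole-library totals came from the ratio of count to FPKM, regressed robustly on length. Counts of replicate libraries differed by a chi-square per degree of freedom of 1.57 to 12.3, so none was taken for an exact repeat of another. This does not show that they came from separate trees. In edgeR the common coefficient of variation between replicates was 6.82%, and a smaller spread gives smaller p-values.

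The clusters and lists were chosen with earlier results of these data known. All 3 clusters are named, with the related clusters and up to 4 of the most abundant tested clusters of each list. The second TIFY6B, NAC043 and MYB35 clusters, GAI1, MS1, MYB80 and the markers AGL11, HEC2, CMB1 and CRABS CLAW are outside that rule. They were chosen after their values were seen. Clusters with the potato symbol STK (STOREKEEPER) were left out of the pistil list.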

Additional observations from a re-analysis of the deposited data

How the results depend on the processing

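MYB24-like, MYB21 and MYB108-like kept their direction and their call in all 14 alternatives of the count test and all 11 of the FPKM table test. The 14 included limma on log2(FPKM + 1) of the regulator clusters, which is not a test on counts. Over these 14 the log2 fold change ran from 1.34 to 1.70 for MYB24-like (highest adjusted p 0.000291, edgeR). For MYB21 it ran from 0.33 to 0.52 (highest adjusted p 0.0117, without sterile replicate 3, edgeR). For MYB108-like it ran from -1.03 to -0.63 (highest adjusted p 0.00126, edgeR). The ends 1.34 and -0.63 came from the limma fit, and the smallest changes in the fits on counts were 1.40 and -0.80. Without fertile replicate 1, which on the log2 scale lay farthest from its group mean for both, MYB24-like and MYB108-like were 1.40 and -0.80. In the FPKM table a pseudocount of 5 gave 0.72 for MYB24-like and -0.35 for MYB108-like, against 1.34 and -0.63 with 1. The 3 ratios kept their sign in all 9 alternatives each. The balance of all calls moved with the scale, being 387 higher and 399 lower by TMM. On the implied whole-library totals it was 567 higher against 297 lower, with the median of all clusters at 0.15 instead of 0.01, and by limma on FPKM 569 higher against 277 lower. On the implied totals MYB24-like, MYB21 and MYB108-like were at 1.70, 0.52 and -0.81. Total calls ran from 703 to 906 with a library left out. The AMS cluster lower in sterile buds lost its call with the implied totals (-0.14). Same-numbered libraries did not deviate together (r = 0.0164, 0.0267 and 0.00892), so no pairing by number was seen in the counts. This cannot show whether same-numbered samples were collected or prepared together. The replicate block gave 1.57, 0.38 and -0.94 for the 3 clusters and changed no call among them, and of the list clusters it ended the call of SEPALLATA 1 (-0.17). Depth limits the comparison for the MYB78 clusters, at 11 to 48 counts per library, and for the second NAC043 cluster (8 to 27) and the MYB83 clusters (17 to 43).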
